A study of Homo sapiens with 11 samples.

Results

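The 6 human Iroquois homeobox genes, IRX1 to IRX6, were examined in peak lists from chromatin immunoprecipitation followed by sequencing (ChIP-seq) in SK-N-MC, an established Ewing sarcoma cell line. Members were chosen by name, with earlier results of these data known. Every called peak that touched a gene body or the 300 kb on either side of it (GRCh38) was taken. This gave 150 peaks of 134925 in the 9 deposited lists, around 6 of 19974 protein-coding genes. The stretch between LPCAT1 and IRX4 was added because of its histone H3 lysine 27 trimethylation (H3K27me3), so its content is described and not tested.

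The cells were labelled wildtype, no treatment or time point was named, and the series held 11 samples. There was 1 sample for each of the histone marks H3K4me3, H3K4me1, H3K27ac and H3K27me3 and the proteins FLI1, RBBP4, MTA2, HDAC2 and CHD4, and 2 input libraries without a list that were not analysed here. CHD4 was pulled down with an antibody to the Flag tag. The route by which the tag entered the gene or cells is not stated in the labels, and those peaks belong to tagged CHD4. All values are from a single line and 1 list per target, so none has a replicate error and no difference below could be tested.

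Iroquois proteins are transcription factors of the TALE homeobox class that pattern the heart, limbs, nervous system and other organs. Their genes lie in a pair of clusters, IRXA with IRX4, IRX2 and IRX1 on chromosome 5 and IRXB with IRX3, IRX5 and IRX6 on chromosome 16. Long gene-poor stretches with distant enhancers separate the members, and in cells that do not use them such genes are classic targets of Polycomb repression, which leaves H3K27me3. H3K4me3 marks promoters, H3K4me1 enhancers and H3K27ac active copies of either. The NuRD complex joins nucleosome remodelling, by the ATPase CHD4, to histone deacetylation, by HDAC2 among others. MTA2 is a scaffold in it, and RBBP4 is a histone-binding subunit shared with other complexes. An antibody to FLI1 can detect EWSR1::FLI1, the fusion transcription factor that drives Ewing sarcoma, as well as FLI1 itself.

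Chromatin at marker genes was checked first. Of 11 Ewing sarcoma markers and fusion targets 9 had an H3K4me3 peak within 1 kb of a start (58.4% of all protein-coding genes) and 10 had a FLI1 peak within 300 kb (27.4% of all genes). CD99 and XG were the markers without H3K4me3. None of 7 markers of blood, epithelial, muscle, endothelial and liver cells had H3K4me3 at a start, while COL1A1 and TWIST1 of 4 neural and mesenchymal markers did. Sequencing depth is unknown, since peak lists carry no read totals, and a missing peak is not evidence that a protein or mark was absent.

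The sequences just upstream of the 3 chromosome 5 members are shown because IRX2 carried peaks at its start and IRX4 and IRX1 carried none. They come from RefSeq (GRCh38.p14), which lists starts for IRX4, IRX2 and IRX1 in the table used here. IRX3, IRX5 and IRX6 have no entry in it. Each is the 250 bases before the outermost listed start, written 5′ to 3′ on the gene's strand, at chr5:1887180-1887429 (minus strand) for IRX4, chr5:2751678-2751927 (minus strand) for IRX2 and chr5:3595582-3595831 (plus strand) for IRX1. Capitals mark CG dinucleotides, the motif searched, which reads the same on either strand and occurs at least once in 93.9% of the 35116 listed promoters.
IRX4: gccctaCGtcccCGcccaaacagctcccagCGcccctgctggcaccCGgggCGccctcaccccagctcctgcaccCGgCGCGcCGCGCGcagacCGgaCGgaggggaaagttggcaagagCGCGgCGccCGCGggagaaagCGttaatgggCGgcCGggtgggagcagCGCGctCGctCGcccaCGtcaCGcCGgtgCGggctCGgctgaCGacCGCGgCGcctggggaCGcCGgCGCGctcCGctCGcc
IRX2: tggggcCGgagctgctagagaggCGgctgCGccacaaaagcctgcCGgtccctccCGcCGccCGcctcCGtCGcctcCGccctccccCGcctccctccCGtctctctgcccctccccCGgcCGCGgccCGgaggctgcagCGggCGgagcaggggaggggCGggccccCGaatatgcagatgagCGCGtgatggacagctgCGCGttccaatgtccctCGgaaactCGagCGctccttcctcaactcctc
IRX1: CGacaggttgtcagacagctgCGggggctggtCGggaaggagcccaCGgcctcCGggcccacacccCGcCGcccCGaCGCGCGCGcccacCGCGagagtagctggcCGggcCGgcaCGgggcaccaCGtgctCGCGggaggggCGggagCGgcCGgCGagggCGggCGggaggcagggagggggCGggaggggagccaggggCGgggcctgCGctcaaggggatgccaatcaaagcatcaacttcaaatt
IRX4 held 40 CG, IRX1 29 and IRX2 27, against a median of 11 over all listed promoters in the same 250 bases. At least as many were found in 2.16% of promoters for IRX4, 14.1% for IRX1 and 17.7% for IRX2. All 3 were thus rich in CG, and only the IRX2 stretch lay under called peaks. There, HDAC2 covered 138 of the printed bases, H3K4me3 74 and H3K27ac 28, and no list covered a base of the IRX4 or IRX1 stretch.

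The 6 genes differed widely in how many peaks lay around them. IRX4 had 86 peaks over the 9 lists, IRX3 36, IRX5 17, IRX6 7, IRX2 4 and IRX1 none. The median over all protein-coding genes was 43, and 81.4% of genes had fewer than IRX4. Of the 86 peaks of IRX4, 70 were H3K27me3. IRX3 stood below that median, with 41.9% of genes lower. IRX2, at 5.86%, and IRX6, at 8.47%, were among the sparsest genes. IRX1 shared its complete lack of peaks within 300 kb with 2.81% of genes. No other protein-coding gene was listed in the IRX2, IRX1 and IRX5 windows, and how far this bears on their totals was not tested.

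Read by list, the family had H3K4me3 within 300 kb for 5 of 6 members (94.3% of all genes), H3K27ac for 5 (91.1%) and HDAC2 for 5 (92.6%). MTA2 was found for 4 members (87.7%), and CHD4 (84.1%), RBBP4 (88.8%) and H3K4me1 (84.3%) for 3 each. FLI1 was found for IRX3 alone (27.4%), and H3K27me3 for IRX4 alone (29.4%). A peak somewhere in so large a window is the rule for most lists, so presence says little and absence is the rarer state. IRX1 lacked all of those lists, and IRX2 lacked CHD4, MTA2, RBBP4 and H3K4me1. IRX4 lacked CHD4, IRX5 lacked H3K4me1 and IRX6 lacked RBBP4.

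**Figure D1:**
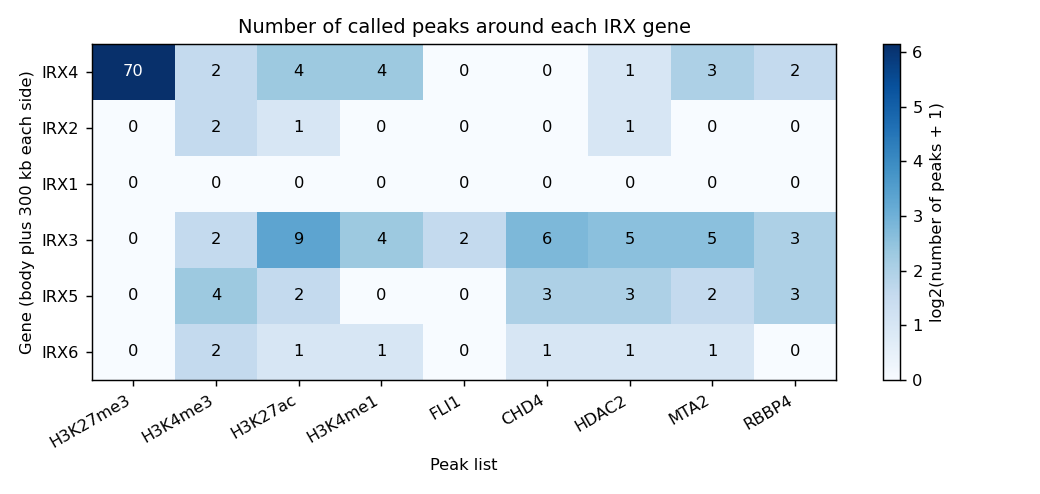
Number of called peaks in each of the 9 lists (columns) in the body plus 300 kb of each IRX gene (rows), with colour on a log2(number + 1) scale. IRX4 holds 70 H3K27me3 peaks and the other members hold none, IRX3 holds both FLI1 peaks, and the IRX1 row is empty.

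Of the family, H3K27me3 was called around IRX4 alone, the member known for its restriction to the ventricles of the heart. All 70 H3K27me3 peaks of the 6 windows were in the IRX4 window, where they covered 46.3 kb and made up 2.05% of the 3420 peaks in the list. Their fold enrichment over local background, as the authors' peak caller reported it, ran from 4.58 to 9.46 with a median of 6.76. The median of the whole list was 6.31. The windows of IRX2, IRX1, IRX3, IRX5 and IRX6 held no H3K27me3 peak, and the nearest ones were 431 kb from IRX2, 1291 kb from IRX1, 1904 kb from IRX3, 1256 kb from IRX5 and 860 kb from IRX6. Only 6 protein-coding genes (0.03%) had 70 or more H3K27me3 peaks within 300 kb. IRX4 was one of them, and the other 5, TSNARE1 with 128 peaks, C8orf90 with 116, PTP4A3 with 92, KCNQ3 with 89 and GPR20 with 80, were all on chromosome 8. Of the 70 peaks around IRX4, 17 lay in the pseudogene PDCD6P1 and are uncertain, as described below. Without them 53 remained, a count for which no share of genes was computed. The family was chosen with earlier results of these data known, so the 0.03% only describes IRX4.

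Between the right annotated end of LPCAT1, a phospholipid-remodelling enzyme gene, and IRX4 lie 353 kb that held 38 H3K27me3 peaks covering 28.9 kb. The promoter peaks of LPCAT1 lay at that end. The first H3K27me3 peak began at 1599466, 75.5 kb from LPCAT1. Peaks no more than 5 kb apart were merged into regions, which gave 7 regions in this interval. The longest, from 1599466 to 1644494, joined 21 peaks with a mean fold enrichment of 6.99 that covered 36.3% of its 45.0 kb. Among the 1799 H3K27me3 regions of the genome it had rank 2 by span and rank 3 by covered length. Of its 21 peaks 17 lay in the pseudogene PDCD6P1, and without them 4 peaks remained, from 1635545 to 1644494, with rank 83 by span and rank 131 by covered length. Inside it the peak at 1630721 to 1631992 had a fold enrichment of 8.56 (−log10 p of 19.9), the peak at 1620332 to 1621196 had 8.49 and the broad peak at 1616663 to 1618504 had 4.58. All 3 lay in PDCD6P1, and the region mixed peaks near the top of the list with some near its bottom.

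Of the 70 peaks, 17 overlapped PDCD6P1, a transcribed pseudogene related to PDCD6 at 1597557 to 1634005, and 53 did not. Reads from near-identical copies can be assigned to either, and no label says how such reads were handled, so those 17 peaks are uncertain. PDCD6 itself had no H3K27me3 peak in its body, nor did SDHA. PDCD6P1 also held an H3K4me3 peak (1633125 to 1633535, fold enrichment 13.7), 470 bp from its right end and 365 bp from the nearest H3K27me3 peak. PDCD6 had an H3K4me3 peak of 22.1.

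The rest of the interval was not uniformly marked. Regions at 1653216 to 1662452, 1673009 to 1673655 and 1748384 to 1753236 followed, the last with a highest fold enrichment of 7.39. A stretch of 97.7 kb without H3K27me3 came next, and it held the divergent promoter of MRPL36 and NDUFS6, genes for a mitochondrial ribosomal protein and a subunit of respiratory complex I. There the H3K4me3 peak at 1798799 to 1802517 was 3719 bp wide with a fold enrichment of 24.0 and a −log10 p of 137, rank 695 of 16089. H3K27ac reached 10.8, MTA2 7.95, HDAC2 4.92 and RBBP4 3.55 at the same promoter, and CHD4 and FLI1 had no peak. H3K27me3 peaks flanked it at 45.6 kb on the LPCAT1 side and 48.5 kb on the IRX4 side.

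This promoter and its flank accounted for most of the other signal in the IRX4 window. The 4 H3K4me1 peaks lay between 1782586 and 1837006, the first with a fold enrichment of 9.15 that was higher than 96.4% of the list. A weaker element at 1792658 to 1794359 combined H3K27ac (5.93 and 7.20), H3K4me1 (6.17) and MTA2 (6.26). No NuRD, FLI1 or H3K27ac peak came closer to the IRX4 body than 75.4 kb, and the nearest H3K4me1 peak was 40.4 kb away. None of the peaks of the other 8 lists overlapped an H3K27me3 peak in the windows.

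H3K27me3 resumed with a region that ended 24.4 kb before the IRX4 body, and further regions led into the gene. The strongest peak of the window, at 1874341 to 1876136, was 1796 bp wide with a fold enrichment of 9.46 and a −log10 p of 22.2, rank 190 of 3420. Its summit lay 1.74 kb from the 3′ end of IRX4, which is on the minus strand. The body held 2 peaks, 1 over the 3′ end (fold enrichment 8.26) and 1 at 1884883 to 1885180 (6.61). The latter was 1.77 to 2.00 kb from the 3 listed starts, so IRX4 had no peak of any list within 1 kb of a start. On the other side, 31 peaks covering 17.1 kb reached 2184554, beginning with the widest of the window, 2325 bp at 1893440 in the lncRNA CTD-2194D22.4. This side was not continuous either, and no H3K27me3 peak was called between 2014760 and 2163044. Beyond the window 4 further peaks led to 2304778, after which no H3K27me3 was called for 431 kb up to IRX2 or from there to 5190365, 1589 kb past IRX1.

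**Figure D2:**
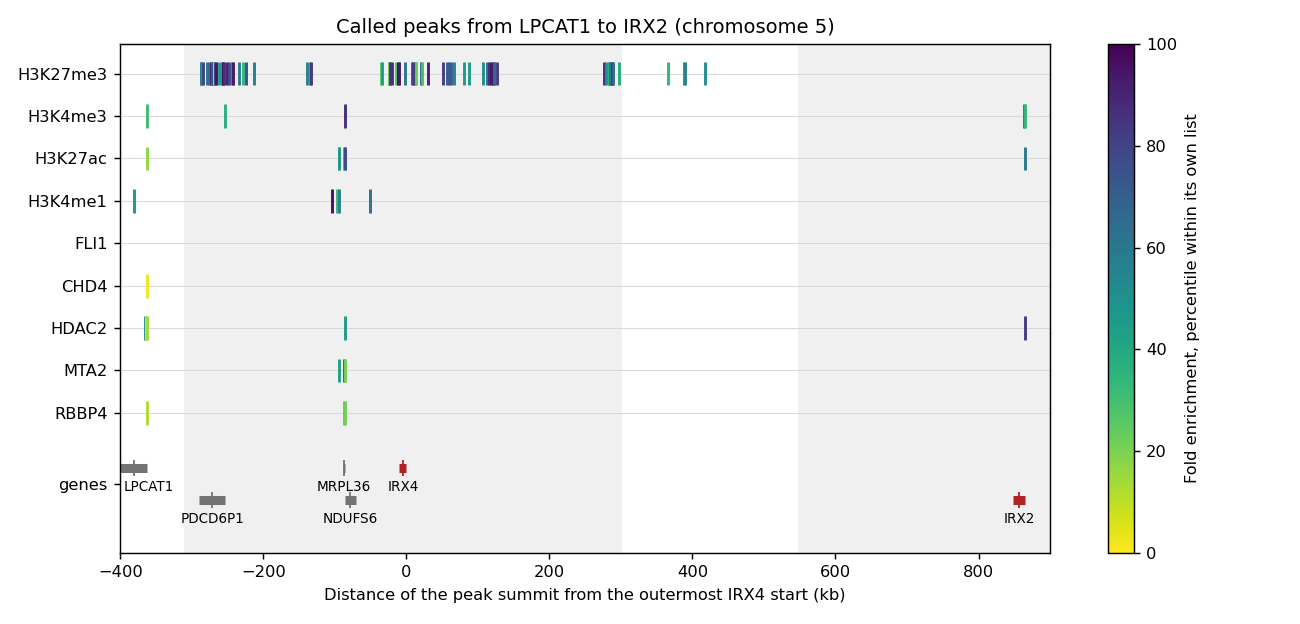
Peak summits of the 9 lists (rows) against distance in kb from the outermost IRX4 start, coloured by the percentile of fold enrichment within each list, with genes below and the IRX4 and IRX2 windows shaded. H3K27me3 lies on both sides of IRX4 with gaps, among them 97.7 kb around MRPL36 and NDUFS6 and the stretch from 2014760 to 2163044. It stops 431 kb before IRX2, where H3K4me3, H3K27ac and HDAC2 appear.

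IRX2, often co-expressed with IRX1 in embryos, carried promoter marks and little else. Its 4 peaks all lay beside its start, H3K4me3 at 2750162 to 2751470 with a fold enrichment of 18.1, H3K4me3 at 2751854 to 2752891 with 12.9, H3K27ac with 8.27 and HDAC2 with 6.66. The start itself, at 2751677, fell in the gap between the H3K4me3 peaks, 207 bp from one and 177 bp from the other. The HDAC2 summit was 253 bp and the H3K27ac summit 477 bp upstream, toward the divergent lncRNA IRX2-DT. In fold enrichment HDAC2 stood higher than 82.5% of its list, whereas the H3K4me3 peaks stood higher than 60.3% and 33.3%. By −log10 p HDAC2 had rank 8466 of 20633, and the H3K4me3 peaks had ranks 9919 and 11913 of 16089. Of CHD4, MTA2, RBBP4, FLI1 and H3K4me1, the nearest peak was one of H3K4me1 at 915 kb from the start.

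IRX1 showed no called peak in any list. The nearest were those at IRX2, at 843 kb for H3K4me3, and 844 kb for H3K27ac and for HDAC2. FLI1 was 1591 kb away. Its upstream sequence, shown above, was as rich in CG as that of IRX2, which had peaks.

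Marks within 1 kb of a start were then compared across the family. For IRX3, IRX5 and IRX6, whose starts are not listed in the table, both annotated gene ends were used, as for all other genes without an entry. H3K4me3 was present at 3 of 6 members, IRX2, IRX3 and IRX5 (58.4% of all genes). H3K27ac was present at IRX2 and IRX3 (39.8%), as was HDAC2 (39.8%). No member had CHD4 (10.8%), MTA2 (21.2%), RBBP4 (22.7%), FLI1 (0.816%), H3K4me1 (6.37%) or H3K27me3 (2.54%) there. IRX4, IRX1 and IRX6 had none of the 9, as had 37.5% of genes. IRX2 and IRX3 thus shared H3K4me3, H3K27ac and HDAC2 without the other NuRD subunits. H3K4me3 with H3K27ac was found at 39% of all genes, and with HDAC2 as well at 28.9%.

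**Figure D3:**
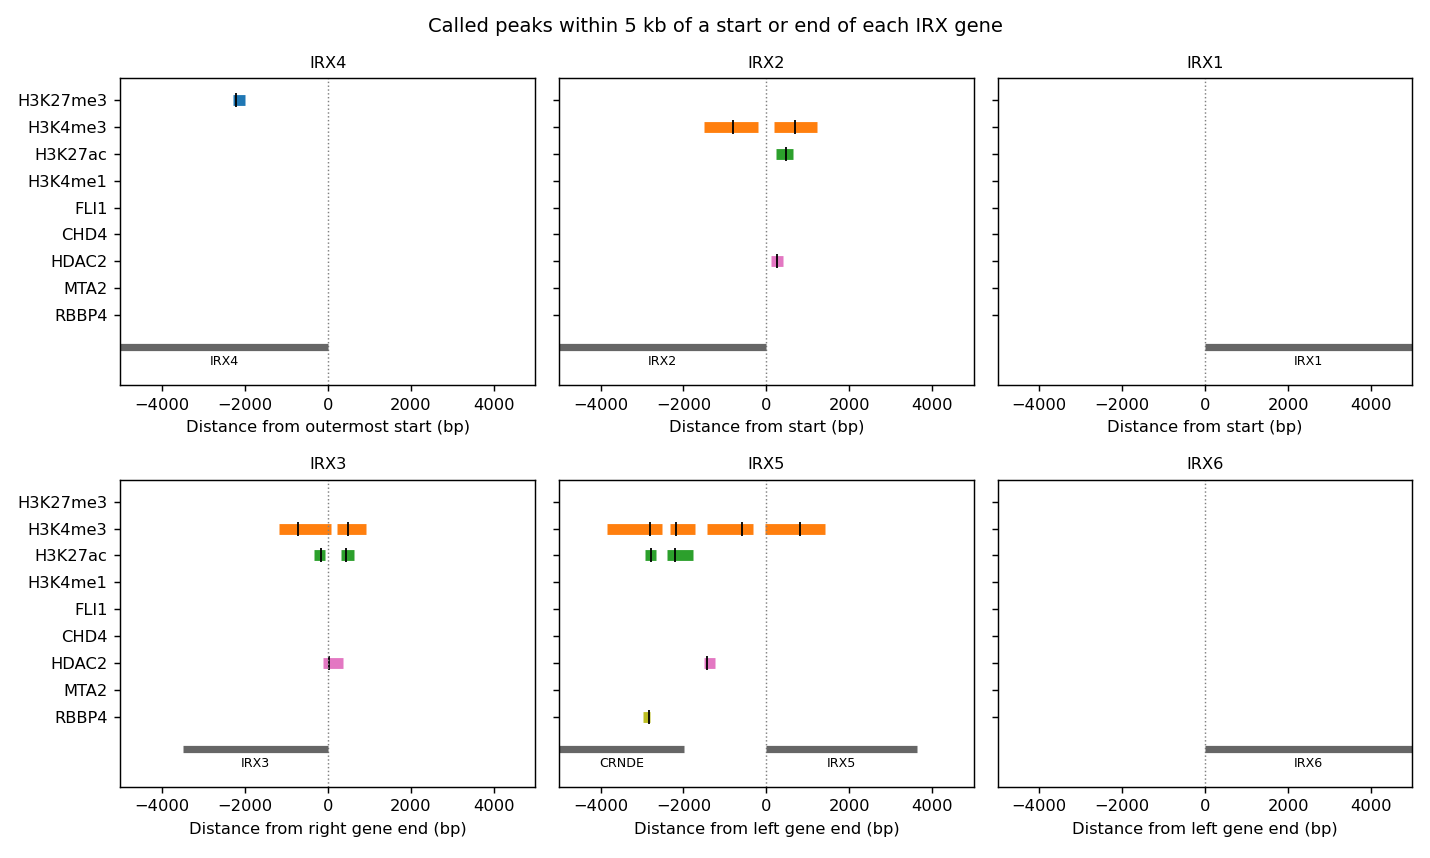
Called peaks (bars, with summits as black ticks) in the 9 lists within 5 kb of the outermost start of IRX4, the starts of IRX2 and IRX1 and an annotated end of IRX3, IRX5 and IRX6, in bp, with genes as grey bars. IRX2, IRX3 and IRX5 carry H3K4me3 and HDAC2, IRX4 a single H3K27me3 peak, and the IRX1 and IRX6 panels are empty.

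IRX3, a neural and limb patterning gene that distant enhancers in the neighbouring FTO gene are known to contact, had the most NuRD subunit peaks of the family, 19. Of all protein-coding genes 71.4% had fewer CHD4 peaks than IRX3 and 55.0% fewer MTA2 peaks. For RBBP4 it was 33.8% and for HDAC2 32.6%. At its right annotated end (54286787) H3K4me3 peaks of 18.5 and 14.02, H3K27ac peaks of 6.32 and 9.48 and an HDAC2 peak of 4.98 lay close together. The HDAC2 summit was 22 bp from that end, and the peak was weak for its list, at rank 19174 of 20633 by −log10 p. H3K4me3 there had ranks 10702 and 11832 of 16089. The H3K27ac peaks had ranks 19786 and 9546 of 21500 by −log10 p. In fold enrichment the H3K4me3 peaks exceeded 62.3% and 38.8% of their list and the H3K27ac peaks 32.9% and 70.5%.

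Both FLI1 peaks of the family lay between IRX3 and IRX5, at 54456448 to 54456694 and 54475021 to 54475359 on chromosome 16. Their summits were 170 kb and 188.4 kb from IRX3, and 474 kb and 456 kb from IRX5. The first had a fold enrichment of 9.75 (−log10 p of 21.5, rank 668 of 1561) and the second 14.1 (37.4, rank 362). The second exceeded 90.2% of the list in fold enrichment. At least 2 FLI1 peaks within 300 kb were found for 8.83% of genes.

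At the second FLI1 peak all 4 NuRD subunits were called at 1 site, 54474951 to 54475537. RBBP4 was the least strongly called, with a −log10 p of 13.98, and at a minimum of 15 the site held 3 subunits. MTA2 had a fold enrichment of 7.58, CHD4 6.85, HDAC2 6.31 and RBBP4 5.80. Their summits were 33 bp (MTA2), 101 bp (HDAC2), 112 bp (RBBP4) and 217 bp (CHD4) from the FLI1 summit. H3K27ac peaks of 11.8 and 11.5 stood on either side, and the FLI1 summit fell in the gap between them, 82 bp from one edge and 99 bp from the other. H3K4me1 was weak, with 1 peak of 5.27 that began 463 bp away.

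The first FLI1 peak was part of a longer element from 54454849 to 54461055. Here 5 H3K27ac peaks of 7.11 to 11.2 covered 3809 bp. CHD4, MTA2 and RBBP4 overlapped the FLI1 peak, with fold enrichments of 4.24, 10.4 and 6.02. The MTA2 summit was 11 bp from the FLI1 summit and this MTA2 peak exceeded 90.8% of its list. HDAC2 was not called at FLI1 itself, and its nearest summit was 921 bp away, in a site that also held CHD4 (7.60) and MTA2 (8.63). The FLI1 summit again lay between H3K27ac peaks, at 118 bp and 181 bp from their edges. H3K4me1 peaks of 5.93 and 7.58 lay farther out, the nearer edge at 1148 bp. Neither FLI1 element had an H3K4me3 or H3K27me3 peak.

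**Figure D4:**
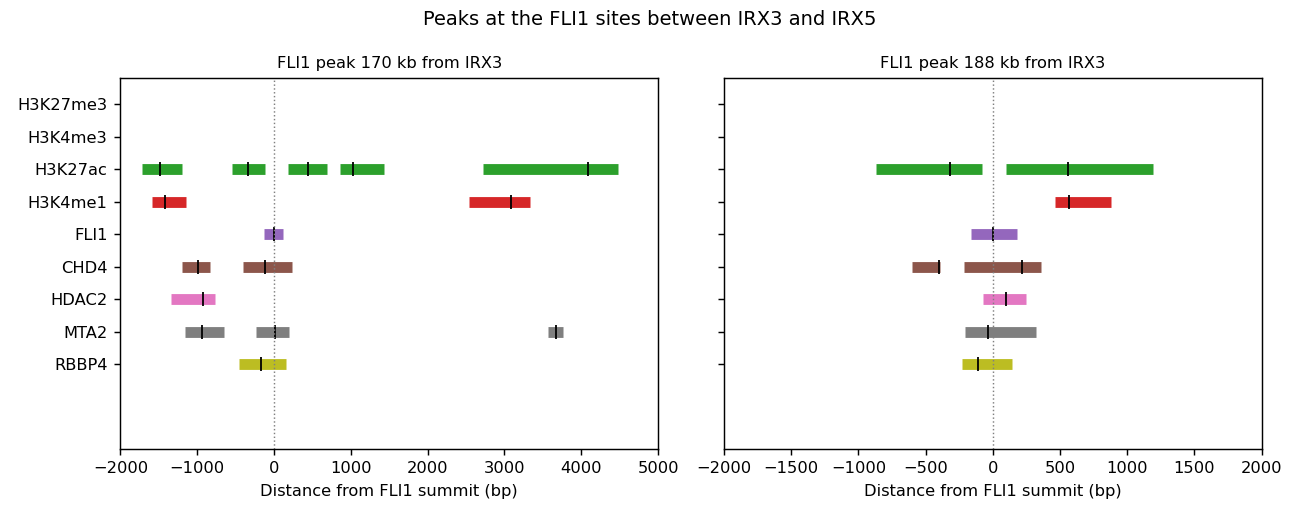
Called peaks (bars, with summits as black ticks) of the 9 lists around each FLI1 peak between IRX3 and IRX5, in bp from the FLI1 summit. In each panel the FLI1 summit falls between H3K27ac peaks, with an MTA2 summit 11 bp (left) or 33 bp (right) away.

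The remaining site with all 4 subunits lay inside FTO, at 54050430 to 54051224, 232 kb from IRX3. It had the highest HDAC2 value of the 6 windows, a fold enrichment of 13.3 (−log10 p of 51.5, rank 641 of 20633) that exceeded 99.9% of the list. RBBP4 was at 8.50, MTA2 at 8.37 and CHD4 at 7.34, with no FLI1 and no H3K27ac. An H3K4me1 peak of 6.08 began close by at 54051347. A CHD4 and HDAC2 site without any histone mark lay nearer to IRX3, at 54193778, with 4.22 and 6.23. FTO held a further FLI1 peak (7.60) outside the window, 435 kb from IRX3.

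IRX5, which acts with IRX3 in limb and heart development, lay beside the lncRNA CRNDE, and 4 H3K4me3 peaks ran from the one to the other, from 54927012 to 54932284. Their fold enrichments were 18.5, 12.2, 19.8 and 16.4 from CRNDE to IRX5, and the last covered the left annotated end of IRX5 at 54930865. The strongest H3K27ac peak of the 6 windows in fold enrichment, 19.1 (−log10 p of 59.7), lay within this run at 54928457 to 54929089, on the CRNDE side. It exceeded 97.8% of its list and was 1.78 kb from IRX5. HDAC2 (5.52) was 1.23 kb and RBBP4 (4.76) 2.81 kb from the same end, also on the CRNDE side. Whether these marks belong to IRX5 or to CRNDE cannot be told apart.

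Away from its start the IRX5 window held NuRD sites without histone marks. CHD4, HDAC2 and RBBP4 coincided at 54654681 to 54654943 (5.86, 7.29 and 5.51), with summits at 54654820, 54654811 and 54654810. CHD4, MTA2 and RBBP4 coincided at 55013257 to 55013626 (4.27, 8.09 and 4.44). CHD4, HDAC2 and MTA2 coincided at 55017401 to 55017699 (4.84, 5.99 and 8.28). Each of these sites lacked 1 subunit, H3K27ac, H3K4me1, H3K4me3 and FLI1. No FLI1 peak was nearer to IRX5 than 456 kb.

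IRX6, the member with a known part in retinal bipolar cells of the mouse, had no peak nearer than an H3K27ac peak of 8.21, whose summit was 37.5 kb away. The other 6 peaks of its window lay 140 kb or more away, at or near MMP2, a matrix metalloproteinase gene, and LPCAT2. They were H3K4me3 at MMP2 (9.32) and LPCAT2 (10.4), H3K4me1 (7.18) and CHD4 (7.33) inside MMP2, HDAC2 (7.82) before it and MTA2 (10.2) inside LPCAT2. The 3 subunit peaks were each alone, yet in fold enrichment CHD4 exceeded 94.3%, HDAC2 92.5% and MTA2 90.2% of their lists. By −log10 p they stood less high, at rank 3027 of 13288 for CHD4, 5601 of 20633 for HDAC2 and 4893 of 13462 for MTA2. The H3K4me3 peaks were low for their list, and the higher one exceeded 21.8% of it.

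**Figure D5:**
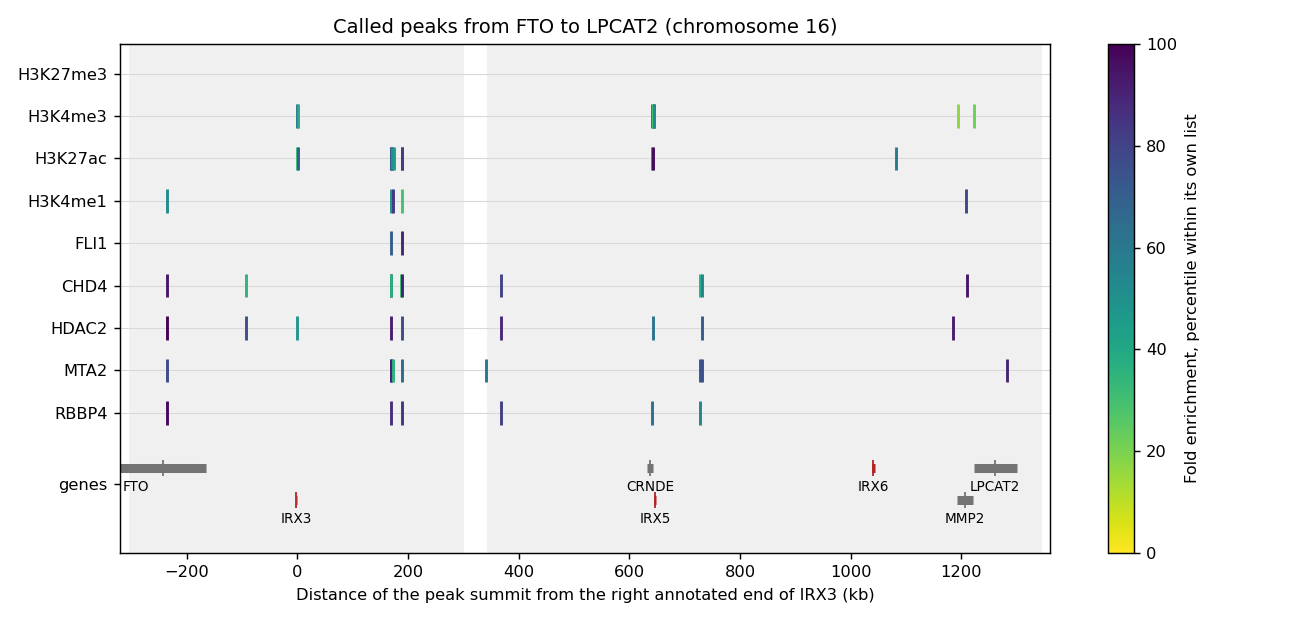
Peak summits of the 9 lists (rows) against distance in kb from the right annotated end of IRX3, coloured by the percentile of fold enrichment within each list, with genes below and the IRX3, IRX5 and IRX6 windows shaded. The H3K27me3 row is empty, FLI1 occurs at 170 and 188.4 kb alone, and promoter marks sit at IRX3 and beside IRX5 but not at IRX6.

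When overlapping subunit peaks were merged, the 6 windows held 19 NuRD sites, 3 on chromosome 5 and 16 on chromosome 16. On chromosome 16, 2 sites had all 4 subunits, 5 had 3, 1 had 2 and 8 had 1. On chromosome 5, 1 site had 3 subunits and 2 had 1. The windows were of similar total length, 1.83 Mb for IRXA and 1.603 Mb for IRXB, so IRXB had 6.24 CHD4 peaks per Mb against none for IRXA, and 4.99 MTA2 peaks per Mb against 1.64. H3K27me3 went the other way, with 38.2 peaks per Mb for IRXA and none for IRXB. IRX3 held 6 of the 10 CHD4 and 5 of the 8 MTA2 peaks of IRXB, and IRX4 held all 70 H3K27me3 peaks of IRXA. These densities therefore do not describe every member of a cluster, and no density over the genome was computed. Sites with all 4 subunits made up 2 of 19 here and 16.96% of the 28995 sites of the genome. A site with all 4 subunits lay within 300 kb of 63.8% of genes, and of the 6 members IRX3 alone had one.

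Subunit peaks of the IRXB windows had higher median fold enrichments than their lists, which −log10 p did not share for CHD4, RBBP4 and HDAC2. The median fold enrichment of the 8 MTA2 peaks was 8.33 (6.64 over the whole list), of the 9 HDAC2 peaks 6.31 (5.08), of the 6 RBBP4 peaks 5.65 (4.26) and of the 10 CHD4 peaks 5.35 (4.65). The median −log10 p was 18.9 for MTA2 (17.9 over the list), 20.82 for HDAC2 (20.86), 13.2 for RBBP4 (14.5) and 13.5 for CHD4 (17.4). For H3K4me3 the median fold enrichment was 15.2 over 8 peaks against 16.2 over the list. These medians describe the called peaks only.

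Around IRX4, H3K27me3 peaks came close to the 300 kb limit from inside, with a region of 8 peaks that began 276 kb from the gene. The closest peak beyond an edge was an MTA2 peak (7.23) at 303 kb from IRX5, and the next an HDAC2 peak (5.99) at 307 kb from IRX6, which the IRX5 window already held. The farthest peak inside was H3K27me3 (5.89) at 297 kb from IRX4. The active promoter of LPCAT1 was at 353 kb and outside. It had H3K4me3 of 12.5, H3K27ac of 5.39, CHD4 of 2.83, RBBP4 of 3.15 and 3 HDAC2 peaks of 3.31 to 5.05. These were low for most lists. In fold enrichment CHD4 stood at the 1.97th percentile, RBBP4 at 11.5, H3K27ac at 17.2, H3K4me3 at 31.6 and HDAC2 at 4.13 to 49.4.

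Of 12 other TALE homeobox genes, the MEIS, PBX, PKNOX and TGIF genes and MKX, 11 had H3K4me3 at a start (58.4% of all genes). There, 8 had H3K27ac (39.8%), 8 HDAC2 (39.8%), 6 MTA2 (21.2%), 5 RBBP4 (22.7%), 4 H3K4me1 (6.37%) and 2 CHD4 (10.8%). MKX was the one with none of the 9 lists. None had H3K27me3 or FLI1 at a start. H3K27me3 came within 300 kb for 3 of the 12 (29.4% of all genes), PBX3 and PKNOX1 with 1 peak each and PKNOX2 with 4. Of 20 other developmental regulators 13 had H3K4me3 at a start, 8 HDAC2, 4 H3K27ac and 4 H3K27me3 (2.54% of all genes). The H3K4me3 and HDAC2 counts were close to the shares of all genes just given. The H3K27me3 ones were EMX2, PAX2, PAX6 and PAX7, and PAX2 had the most H3K27me3 peaks within 300 kb in the list, 14 against 70 for IRX4.

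Genes with the most similar peaks were found from the summed fold enrichment times width within 10 kb of each gene body, as percentiles over all protein-coding genes in the 9 lists. IRX4, with H3K27me3 as its one signal at the 99.8th percentile, was closest to TCF21 and CCN4 (mean difference of 0.00111 percentile points) and ENPP2 (0.00223). IRX2 was closest to CES2, CIAO2B and RRAD, tied at 0.434 points. IRX3 was closest to TTYH2 (0.485), PCGF6 (0.529) and PCED1A (0.624). IRX5 was closest to HPS5 (1.14), COMMD1 (1.33) and COX8A (1.34). IRX1 and IRX6 had no peak within 10 kb and were left out.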

How the data were processed

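Peaks within 300 kb of IRX1 to IRX6 were taken from 9 deposited ChIP-seq peak lists of SK-N-MC, grouped by the labelled target. The submitters' processing notes name the build GRCh38 and, in no order, bedtools 2.27.1, deepTools 3.2.1, SAMtools 1.9, BWA 0.7.17, FastQC 0.11.7 and Trimmomatic 0.36. MACS2 appears in the deposited peak names. Not given in the sources used here are its version, the control library, any pooling and any excluded regions. Fold enrichment at the summit, a ratio to local background, and −log10 p are the authors' deposited values, used only to describe and rank peaks within a list. List thresholds differed: the lowest −log10 p was 5.02 in the FLI1 list, 7.01 in the RBBP4 list and between 9.00 and 9.16 in the other 7.

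Coordinates were converted to 1-based GRCh38. Overlap meant at least 1 bp. Gene positions came from a RefSeq table of GRCh38.p14. Starts were listed for 15813 of 19974 protein-coding genes, and either annotated end was used for the other 4161. Percentages of genes count windows made the same way around every protein-coding gene. Counting and merging were tested on simulated peaks (Python 3.11.15, pandas 2.3.3). The members and gene lists were chosen with earlier results of these data known. Named were the members, protein-coding window genes marked at a start, the listed genes, the 3 most similar genes per member and the peak of highest −log10 p per list and window. Other peaks, lncRNAs and PDCD6P1 were named after their values were seen. Alternatives were a −log10 p of at least 15, 100 kb windows, 5 kb or summits at starts, other merging distances and 50% overlap.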

Additional observations from a re-analysis of the deposited data

How the results depend on the processing

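No test was possible, so the alternatives concern counts. With a −log10 p of at least 15 the windows held 4 CHD4 peaks in place of 10, 2 RBBP4 in place of 8 and 28 H3K27me3 in place of 70. HDAC2 remained at the start of 1 member, IRX2, in place of 2. H3K27me3 then covered 24746 bp in place of 46254 in the IRXA windows, and 1 site with all 4 subunits was left of 2, the one inside FTO, since the site at FLI1 lost RBBP4. With 100 kb on either side the windows held 3 CHD4, 6 HDAC2, 5 MTA2, 4 RBBP4, 0 FLI1, 10 H3K27ac, 4 H3K4me1 and 25 H3K27me3 peaks, the last covering 16234 bp. Allowing 5 kb from a start added 1 member for RBBP4, IRX5, and 1 for H3K27me3, IRX4, each up from 0, and raised HDAC2 and H3K27ac from 2 to 3 members each, with IRX5. Merging H3K27me3 peaks within 1 kb gave 20 regions between LPCAT1 and IRX4, and merging within 20 kb gave 3, in place of 7. Another 38 alternative counts, the HDAC2 and H3K27ac counts at 5 kb among them, differed by no more than 1.5 times. Some of the 38, chosen after seeing the data, left out peaks in the pseudogenes SDHAP3 and PDCD6P1. They gave 33521 bp in the IRXA windows, 0 bp in the IRXB windows and 7 regions between LPCAT1 and IRX4. No paired analysis was possible because each target has 1 peak list, for which reason no replicate could be left out either. Lists with different thresholds and unknown depth limit every comparison between targets.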

Other observations

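Several of the NuRD peaks around the IRXB genes overlapped no called peak of a histone mark or FLI1. Of the 16 merged sites there, those at 54193778, 54654681, 55013257, 55017401, 55470558, 55496069 and 55569006 and the site with all 4 subunits inside FTO overlapped none of FLI1, H3K27ac, H3K4me1, H3K4me3 and H3K27me3. These were 8 of 16 sites, against 25.4% of the 28995 sites of the genome, a difference that was not tested. The HDAC2 peak with the highest fold enrichment of the family, 13.3 inside FTO, was among them. Overlap meant at least 1 bp, so a site beside a marked stretch counts as having none. The FTO site ended at 54051224, close to an H3K4me1 peak that began at 54051347. Likewise, the site at 55496069 lay close to an H3K4me1 peak that ended at 55495961.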
